A study of Mus musculus with 8 samples.

Results

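Serum amyloid A and a group of other acute phase genes were described in subcutaneous mouse melanomas treated with an antibody against PD-1. The set holds 8 of the 28918 genes in the deposited expression table: the serum amyloid A genes Saa1, Saa2 and Saa3, and Lcn2, Ptx3, Orm1, Hp and Cp. The members were chosen by their role in the acute phase response and by their TPM difference between the tumor groups in these same libraries. Their difference between the groups is therefore given as a description, with no test. All tumors were B16-mhgp100, a line of the C57BL/6 melanoma B16 with a gp100 antigen, grown in C57BL/6 mice. The Colq group over-expressed Colq, the collagen-like tail of acetylcholinesterase, and the Vector group carried the vector alone. Every mouse, of either group, received anti-PD1 at 200 µg per dose for 4 doses from day 10, with harvest 1 day after the last dose, so there were no untreated tumors to compare. The 3 Colq tumors gave 1 library each. The 3 Vector tumors gave 5, because tumors 1 and 2 were sequenced as 2 portions each, and portions were averaged so that 3 tumors stood against 3.

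The acute phase response is the change in secreted proteins that follows infection, injury or a tumor. Cytokines such as interleukin-1, tumor necrosis factor and the Il6 family act through NF-kB, C/EBP and STAT3 to raise transcription of these genes, mainly in the liver. In the mouse Saa1 and Saa2 are the main hepatic forms, whereas Saa3, Lcn2 and Ptx3 are also made outside the liver, for instance by macrophages, fibroblasts and fat cells.

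The 3 serum amyloid A genes lie close together on chromosome 7. In the GRCm38 annotation Saa3 (ENSMUSG00000040026) spans chr7:46711998-46715700 on the minus strand, Saa1 (ENSMUSG00000074115) chr7:46740497-46742980 on the minus strand and Saa2 (ENSMUSG00000057465) chr7:46751790-46754313 on the plus strand. The authors' build was mm39, so these positions serve only to place the genes. Saa1 and Saa2 are near copies. Their reference mRNAs of 609 and 606 bases were identical at 94.4% of aligned bases and shared 13.2% of 50-base windows, so reads can be split between them and the level of each is uncertain. Saa3 was identical to Saa1 at 76.3% of aligned bases and shared 1.61% of those windows. Orm1 also has a near copy, Orm2, whose mRNA was 91.0% identical. Lcn2 (ENSMUSG00000026822) spans chr2:32384633-32388252 on the minus strand, Ptx3 (ENSMUSG00000027832) chr3:66219910-66225805 and Cp (ENSMUSG00000003617) chr3:19957054-20009145, both on the plus strand. Hp (ENSMUSG00000031722) spans chr8:109575128-109579172 on the minus strand and Orm1 (ENSMUSG00000039196) chr4:63344560-63348163 on the plus strand.

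The sequence just upstream of the transcript start is shown for the 4 members with the largest or most nearly exclusive difference toward Colq tumors, because these are the windows in which the factors of the response are known to act. Each window runs from 250 to 51 bases before the RefSeq start, on the gene's own strand, in GRCm38.p6. Capitals mark matches, on either strand, to 2 simplified motifs: TTGCNNAA for C/EBP, and for NF-kB a GGG followed, after any 5 bases, by CC. Saa3 is at chr7:46715727-46715926, Saa1 at chr7:46743031-46743230, Saa2 at chr7:46751583-46751782 and Lcn2 at chr2:32387790-32387989. All are on the minus strand except Saa2.
Saa3: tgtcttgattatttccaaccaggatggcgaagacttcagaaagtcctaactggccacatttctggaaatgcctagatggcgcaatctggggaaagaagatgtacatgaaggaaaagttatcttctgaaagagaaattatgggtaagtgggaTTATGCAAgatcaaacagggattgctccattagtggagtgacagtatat
Saa1: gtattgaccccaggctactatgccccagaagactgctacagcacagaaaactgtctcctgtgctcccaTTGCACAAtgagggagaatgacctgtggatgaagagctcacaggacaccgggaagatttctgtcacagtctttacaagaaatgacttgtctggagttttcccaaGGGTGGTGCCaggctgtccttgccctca
Saa2: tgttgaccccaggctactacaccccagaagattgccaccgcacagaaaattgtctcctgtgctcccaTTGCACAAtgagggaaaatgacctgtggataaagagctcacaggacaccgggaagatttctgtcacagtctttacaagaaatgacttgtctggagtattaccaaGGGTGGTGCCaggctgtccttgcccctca
Lcn2: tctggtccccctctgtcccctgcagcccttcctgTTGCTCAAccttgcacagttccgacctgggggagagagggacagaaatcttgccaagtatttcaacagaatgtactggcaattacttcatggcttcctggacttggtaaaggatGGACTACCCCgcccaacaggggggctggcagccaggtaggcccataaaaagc
Each of the 4 windows held 1 C/EBP match, a motif found in 8.11% of 32851 promoter windows of the same length. In Saa3 it lay 99 to 92 bases upstream of the start and in Saa1 182 to 175 bases upstream. Saa1, Saa2 and Lcn2 also held 1 NF-kB match, a loose motif present in 37.2% of all windows, and no marked matches overlapped. The windows of Saa1 and Saa2 were identical at 94.5% of aligned bases, and those of Saa1 and Saa3 at 65.1%. No member's window matched TTCNNNGAA, the STAT motif, which 5.76% of windows held. Ptx3 matched none of the 3 motifs, and of the 2 RefSeq starts of Cp the second held 1 C/EBP and 1 NF-kB match. The motifs were chosen with the sequences in view, and a match describes letters only. Hp and Orm1 were not matched in the promoter table.

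Levels are in TPM, transcript abundance scaled to gene length and to the library total, so that genes can be compared. TPM keeps no depth, so the reads behind a value are unknown, and each library listed between 19887 and 21602 genes above 0. Colq, the over-expressed gene, reached 4.05, 5.03 and 3.86 TPM in its libraries, against 0 to 0.24 TPM with Vector. The 3 Colq libraries lay closer together than portions of a single tumor. Over 13726 genes with a mean of at least 1 TPM over the 6 tumors, the median absolute log2 difference was 0.11 for each pair of Colq libraries, against 0.14 and 0.22 for the portions of Vector tumors 1 and 2. The labels call the Colq libraries separate tumors, and spread between them may still understate the spread between animals. The 7 melanoma marker genes summed to between 10949 and 11272 TPM in Colq libraries and between 17604 and 22339 TPM in Vector libraries, with 0 called higher and 6 lower. Mlana, named after its value was seen, was the exception, at 2136 ± 24.6 TPM with Colq, against 1810 ± 321 TPM with Vector (log2 fold change 0.25, limma adjusted p = 0.084). After size factors 2 were called higher (Mlana, 0.83, and Tyr, 0.38) and 4 lower, and Dct did not pass (-0.11, adjusted p = 0.51).

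**Figure D1:**
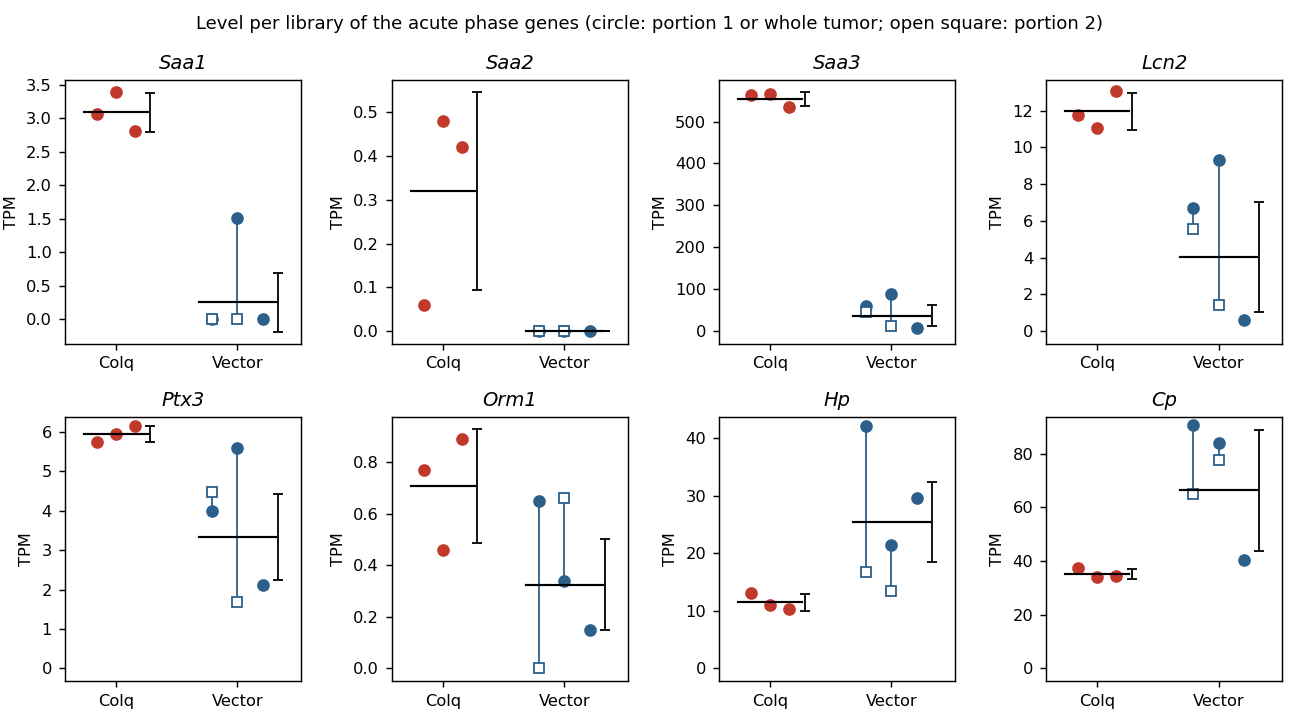
Level in TPM (linear axis, 1 scale per gene) of the 8 acute phase genes in the 3 Colq libraries (red, left) and the 5 Vector libraries (blue, right; open squares are second portions); a thin line joins the portions of a Vector tumor, the horizontal bar is the mean over 3 tumors and the bracket its SD. Saa3 lies between 536 and 565 TPM in Colq libraries and between 7.46 and 87.8 TPM in Vector libraries, Hp and Cp lie lower in Colq libraries, and only Orm1 overlaps. Of all 13726 tested genes, 12.5% had the Colq tumors all above the Vector tumors and 62.2% all below.

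Saa3 was by far the most abundant member in Colq tumors. It encodes an apolipoprotein of the acute phase that, in the mouse, is made by macrophages, fat cells and epithelia rather than by the liver alone. The Colq libraries held 564, 565 and 536 TPM. The Vector libraries held 60.3 and 44.9 TPM in the portions of tumor 1, 87.8 and 12.7 TPM in those of tumor 2, and 7.46 TPM in tumor 3. Every Colq library was above every Vector library, and the Vector libraries varied 11.8-fold among themselves, against 1.05-fold for the Colq libraries. The mean was 554.8 ± 16.7 TPM with Colq, against 36.7 ± 25.4 TPM with Vector (SD, n = 3 each), a 15.1-fold ratio of means. On the log2(TPM + 1) scale the fold change was 4.47 (SE 0.60), the 6th highest of the 13726 genes. It was 3.69 without Vector tumor 3 and 5.02 without Vector tumor 1, the lowest and the highest values found over 21 alternative settings. Among all genes of a library Saa3 ranked between 244 and 256 by TPM in the Colq tumors and between 1768 and 9601 in the Vector libraries.

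Saa1 and Saa2, the hepatic forms, were present at far lower levels. Saa1 stood at 3.06, 3.40 and 2.81 TPM in Colq tumors. In the Vector libraries it was 1.51 TPM in the first portion of tumor 2 and was listed at 0 in the other 4. The groups did not overlap, and the log2 fold change was 1.81 (SE 0.23). That value depends on the added constant of 1 TPM, being 4.32 with a constant of 0.1, since the Vector group is near 0. Saa2 stood at 0.06, 0.48 and 0.42 TPM in Colq tumors and was listed at 0 in all 5 Vector libraries, so no fold is given. It did not reach the filter of 1 TPM. The level of Saa3 in Colq tumors, 554.8 TPM, compares with a mean of 3.09 TPM for Saa1 and 0.32 TPM for Saa2 on the same scale.

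Lcn2 encodes lipocalin 2, which binds bacterial siderophores and so withholds iron. It stood at 11.8, 11.03 and 13.1 TPM in Colq tumors. The Vector libraries held 6.68 and 5.53 TPM in the portions of tumor 1, 9.33 and 1.42 TPM in those of tumor 2, and 0.61 TPM in tumor 3. The groups did not overlap, although the first portion of Vector tumor 2 came close to the lowest Colq tumor. The log2 fold change was 1.75 (SE 0.49). It was 1.12 without Vector tumor 3, the tumor with the lowest value, and 1.36 with first portions alone.

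Ptx3, the long pentraxin, is a soluble pattern recognition protein made locally by myeloid and stromal cells. It stood at 5.74, 5.94 and 6.15 TPM in Colq tumors. Vector libraries held 3.98 and 4.48 TPM in the portions of tumor 1, 5.59 and 1.68 TPM in those of tumor 2, and 2.11 TPM in tumor 3. The groups were adjacent rather than far apart, the highest Vector library lying just under the lowest Colq library. The log2 fold change was 0.76 (SE 0.19). Orm1, alpha-1-acid glycoprotein, stood at 0.77, 0.46 and 0.89 TPM in Colq tumors, against 0.65, 0, 0.34, 0.66 and 0.15 TPM in the Vector libraries. It overlapped between the groups and stayed under the filter.

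Hp and Cp went the other way as deposited. Hp encodes haptoglobin, which captures free hemoglobin. It stood at 13.15, 10.9 and 10.3 TPM in Colq tumors. In Vector libraries there were 42.0 and 16.7 TPM in the portions of tumor 1, 21.4 and 13.45 TPM in those of tumor 2, and 29.6 TPM in tumor 3. The groups did not overlap, but the second portion of Vector tumor 2 lay within 1 TPM of the highest Colq tumor. Cp encodes ceruloplasmin, a copper protein that oxidizes iron. It stood at 37.4, 33.9 and 34.3 TPM in Colq tumors. In Vector libraries there were 90.7 and 64.8 TPM in the portions of tumor 1, 84.1 and 77.6 TPM in those of tumor 2, and 40.4 TPM in tumor 3, which lay near the Colq tumors. The log2 fold change was -0.996 (SE 0.20) for Hp and -0.82 (SE 0.24) for Cp.

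The make-up of the set differed with these levels. Saa3 took between 88.7 and 89.5% of the summed TPM of the 8 genes in Colq tumors, against between 9.29 and 41.8% in Vector libraries. In each Colq tumor the order began with Saa3 and then Cp. In the Vector libraries Cp was the most abundant member in 4 of 5, and Saa3 in the first portion of tumor 2 only. Hp and Lcn2 were close neighbours in Colq tumors, at 11.5 ± 1.49 and 12.0 ± 1.03 TPM (SD, n = 3 each), a difference within their spread. In Vector tumors Hp averaged 25.5 ± 6.97 TPM and Lcn2 4.03 ± 2.98 TPM. Ptx3, at 5.94 ± 0.205 TPM in Colq tumors, and Saa1 below it did not overlap there.

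Of the 8 members 6 passed the filter, and in a limma fit over all genes 4 of them lay past an adjusted p of 0.05 on the higher side in Colq tumors and 2 on the lower side, which describes them and is no test of them. Of all 13726 tested genes 70.9% were called, 11.3% higher and 59.6% lower, and in 12.5% the Colq tumors all lay above the Vector tumors and in 62.2% all below. Because the contrast chose the members, nothing is read from their counts. All tested genes together had a median of -0.50 on the log2 scale, and a fold change is best read against it. After size factors, which bring that median to -0.0013, 28% of genes were called higher and 25.5% lower. On that scale Saa3 stood at 4.84, Saa1 at 2.02, Lcn2 at 2.09 and Ptx3 at 1.18, while Hp stood at -0.51 and Cp at -0.27. The authors' deposited table gives log2 fold changes of 4.47 for Saa3, 5.83 for Saa1, 2.12 for Lcn2, 1.37 for Ptx3, -0.624 for Hp and -0.379 for Cp.

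Fold changes also moved with the length of the transcript. The median log2 fold change was 0.21 in tested genes of at most 1000 bases, with 36.3% called higher and 16.4% lower. It was -0.88 in those over 4000 bases, with 1.79% called higher and 86.4% lower. Saa3, Saa1 and Lcn2, at 555, 609 and 915 bases, belong to the short class. Cp, at 4092 bases, belongs to the long one. With the trend on this length removed, a setting chosen after the data were seen, Saa3 stood at 4.18, Saa1 at 1.55, Lcn2 at 1.65 and Ptx3 at 1.06. Hp stood at -0.91 and Cp at -0.14.

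**Figure D2:**
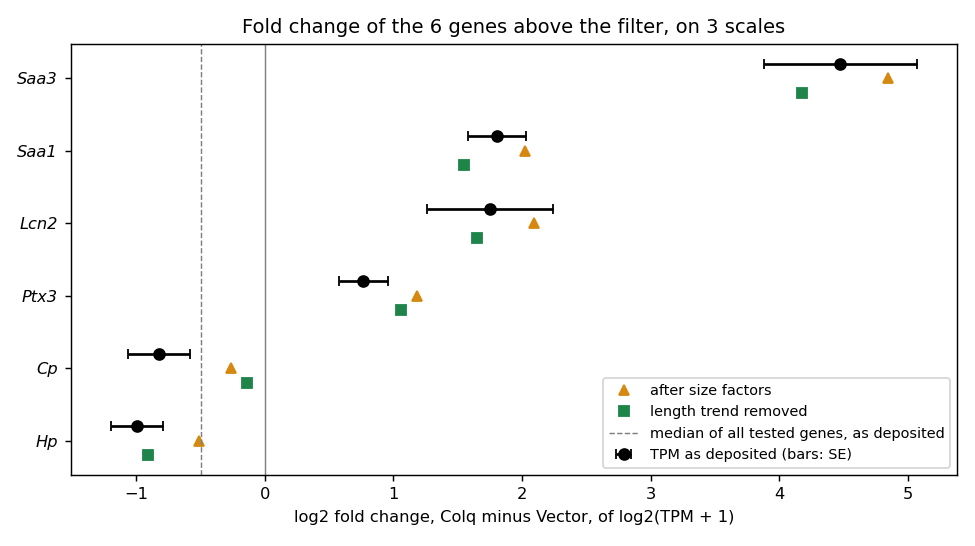
Log2 fold change, Colq minus Vector, of the 6 acute phase genes above the filter: TPM as deposited (black, with SE), after size factors (orange) and with the transcript length trend removed (green); the dashed line is the median of all tested genes. Saa3, Saa1, Lcn2 and Ptx3 stay between 0.76 and 4.84 on the 3 scales, whereas Cp moves from -0.82 as deposited to -0.27 and -0.14.

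The members also varied among the Vector libraries. Saa3 and Lcn2 followed the same order over the 5 Vector libraries, highest in the first portion of tumor 2, then the portions of tumor 1, the second portion of tumor 2 and tumor 3. This is a description of 5 libraries that share 2 tumors. Within tumor 2, portion 1 exceeded portion 2 by a log2 difference of 2.70 for Saa3, more than in 99.5% of tested genes. Lcn2 differed by 2.09, Saa1 by 1.33, Ptx3 by 1.3 and Hp by 0.63, where the median absolute difference of tested genes was 0.22. Cp, at 0.11, was even between these portions.

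Other acute phase genes were also higher in portion 1 of that tumor. Serpina3n, a protease inhibitor, stood at 11.9 TPM in portion 1 and 2.54 TPM in portion 2, and Lbp, which binds lipopolysaccharide, at 6.48 and 1.54 TPM. The complement component C3 stood at 23.6 TPM in portion 1 and 8.30 TPM in portion 2. All 7 tested genes of the list of other acute phase genes were higher in portion 1 of tumor 2, with a median difference of 1.29. In tumor 1 the same list had a median of 0.20, with 6 of 7 higher in portion 1. There the members split otherwise: Hp differed by 1.28 and Cp by 0.48, while Saa3 differed by 0.42, Lcn2 by 0.23 and Ptx3 by -0.14. Each tumor gives 1 pair of portions, so these differences have no replicate check.

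**Figure D3:**
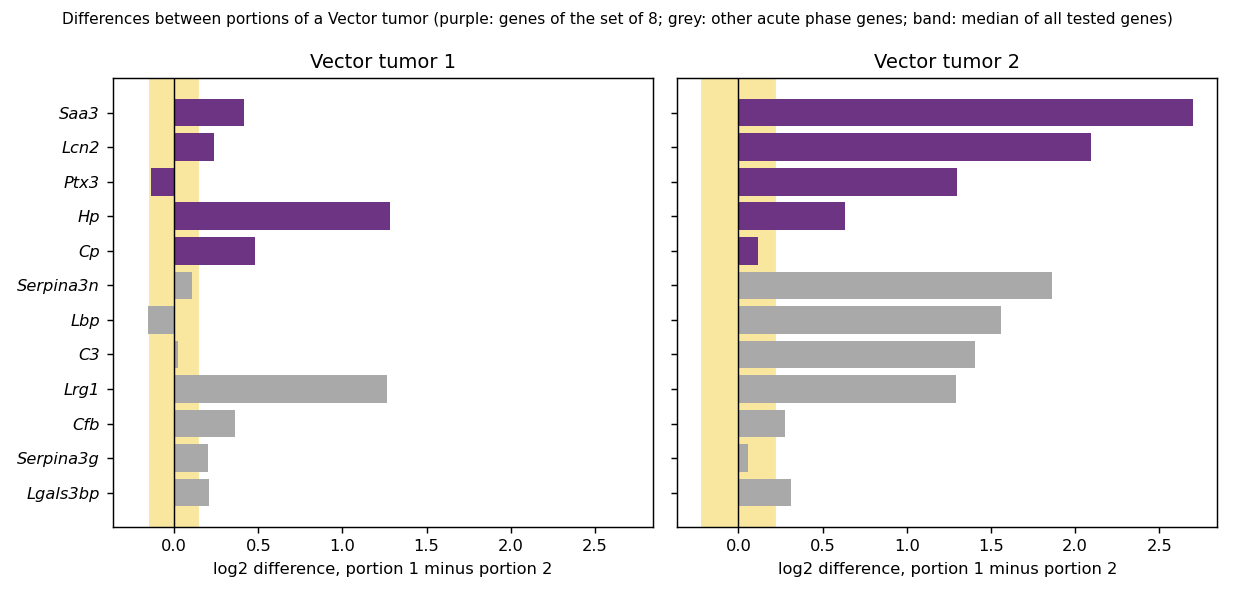
Log2 difference, portion 1 minus portion 2, of the acute phase genes in Vector tumor 1 (left) and Vector tumor 2 (right), with the members in purple and other acute phase genes in grey; the yellow band is the median absolute difference of all tested genes. In tumor 2 the longest bars are Saa3 (2.70) and Lcn2 (2.09), and in tumor 1 the longest is Hp (1.28).

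The portions differed in other cell type markers too. In tumor 2, fibroblast markers summed to 213.6 TPM in portion 1 and 121.1 TPM in portion 2, macrophage markers to 471.4 and 273.8 TPM, and skeletal muscle markers to 143.5 and 30.5 TPM. All 8 tested markers of each of these 3 lists were higher in portion 1. Keratinocyte markers summed to 24.2 TPM in portion 1 and 0 TPM in portion 2 of this tumor. Of the 6 tested, 3 were higher in portion 1, and Krt15, Krt1 and Lor were listed at 0 in both portions. In tumor 1, S100a8 and S100a9 made up most of the neutrophil sum of portion 1. That portion held 219.9 TPM of keratinocyte and 118.0 TPM of neutrophil markers, and portion 2 held 1.38 and 9.21 TPM. The part of these cells in the differences of the acute phase genes was not tested.

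The sources in which these genes are known were then looked for among cell type markers. Hepatocyte markers were near the floor, at 5.94 to 8.55 TPM in Colq libraries and 7.42 to 9.59 TPM in Vector libraries over 12 genes, of which 2 passed the filter, 0 of them called higher and 1 lower. Most of that sum was Apoa2, at 5.22 ± 1.11 TPM with Colq, against 4.34 ± 0.610 TPM with Vector (SD, n = 3 each). After size factors Apoa2 was called higher (0.68, limma adjusted p = 0.011) and the other tested gene, Serpinc1, lower (-0.88, limma adjusted p = 0.021). Hnf4a, the regulator that defines liver cells, was listed at 0 in every library, and Alb was at most 0.60 TPM in Colq libraries and 0.05 TPM in Vector libraries. Several acute phase genes of the liver were likewise at or near 0: Orm2 and Hamp were listed at 0 in every library, and Crp, Fga, Fgb, Fgg, Itih3, Itih4 and Mbl1 averaged at most 0.0733 TPM with Colq, against 0.0183 TPM with Vector. Those genes were named outside the rule, after their values were seen.

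Markers of cells that make Saa3 outside the liver were present. Macrophage markers summed to between 989 and 1003 TPM in Colq libraries, against 247.7 to 471.4 TPM in Vector libraries. Lyz2, the myeloid lysozyme, made up most of this, at 869 ± 4.37 TPM with Colq, against 187.5 ± 32.5 TPM with Vector, whereas Cd68 stood at 59.0 ± 3.84 and 57.8 ± 16.7 TPM (SD, n = 3 each). Of the 8 macrophage genes 4 were called higher and 1 lower. After size factors 6 were called higher and 0 lower, Cd68 among the 6 (0.63, limma adjusted p = 0.022). Fibroblast markers summed to between 268 and 296.3 TPM in Colq libraries and between 121.1 and 224 TPM in Vector libraries. Of the 8 markers 5 were called higher and 2 lower as deposited, and 6 higher and 1 lower after size factors. The 2 with the highest mean over all 6 tumors were Col1a1, at 45.5 ± 2.48 TPM with Colq, against 87.2 ± 7.02 TPM with Vector, and Col1a2, whose fall of 0.49 on the log2 scale reverses to 0.07 after size factors. In Colq tumors they stood below Dcn, at 80.4 ± 3.55 TPM against 16.6 ± 5.13 TPM with Vector, and Dpt, at 52.8 ± 3.00 TPM against 2.81 ± 0.390 TPM with Vector. Dcn and Dpt, which were named after their values were seen, rose by 2.35 and 3.92 on the log2 scale, and the others that rose were Clec3b, Pi16 and Lum. Adipocyte markers overlapped, at 89.0 to 99.0 TPM in Colq libraries and 61.7 to 104.8 TPM in Vector libraries, with 1 of 4 tested called higher and 0 lower. After size factors all 4 were called higher. Fabp4 stood at 57.8 ± 3.82 TPM with Colq, against 49.1 ± 17.8 TPM with Vector.

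Neutrophil markers, of a cell type that stores Lcn2 protein, summed to between 20.1 and 22.9 TPM in Colq libraries. In Vector libraries they summed to between 2.12 and 10.4 TPM, apart from the first portion of tumor 1 with 118.0 TPM. In that library S100a8 and S100a9 stood at 55.1 and 58.0 TPM, whereas Retnlg and Csf3r, also tested, stood at 1.28 and 2.72 TPM. Krt14, a keratinocyte marker, stood at 132.9 TPM there, and Lcn2 at 6.68 TPM. What the neutrophil sum of this library says about neutrophils was not tested. Ngp was listed at 0 in every library. Of the 4 tested neutrophil genes 1 was called higher and 0 lower, and after size factors 2 higher and 0 lower. Skeletal muscle markers did not overlap, at 733.4 to 753.2 TPM in Colq libraries and 30.5 to 143.5 TPM in Vector libraries, and all 8 were called higher. Acta1 stood at 171.9 ± 4.17 TPM with Colq, against 24.4 ± 10.2 TPM with Vector. Keratinocyte markers summed to between 38.5 and 43.9 TPM in Colq libraries and between 0 and 219.9 TPM in Vector libraries. The sums averaged 41.4 ± 2.73 TPM over the Colq tumors and 41.2 ± 60.3 TPM over the Vector tumors. Of the 6 tested, 4 were called higher, among them Krt10, whose call is lost with first portions alone (2.23, adjusted p = 0.082). The call of Krt5, named after its value was seen, is lost after size factors (1.13, adjusted p = 0.24). Endothelial markers were lower, at 46.9 to 49.9 TPM in Colq libraries and 87.1 to 141.1 TPM in Vector libraries, with 4 of 5 called lower. The fifth, Vwf, did not pass and stood at 32.8 ± 0.939 TPM with Colq, against 58.5 ± 38.1 TPM with Vector. Pecam1 stood at 6.76 ± 0.772 TPM with Colq, against 16.6 ± 2.83 TPM with Vector. In bulk tissue more cells of a type and more RNA per cell cannot be told apart, and the part of these cells in the levels of the members was not tested.

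**Figure D4:**
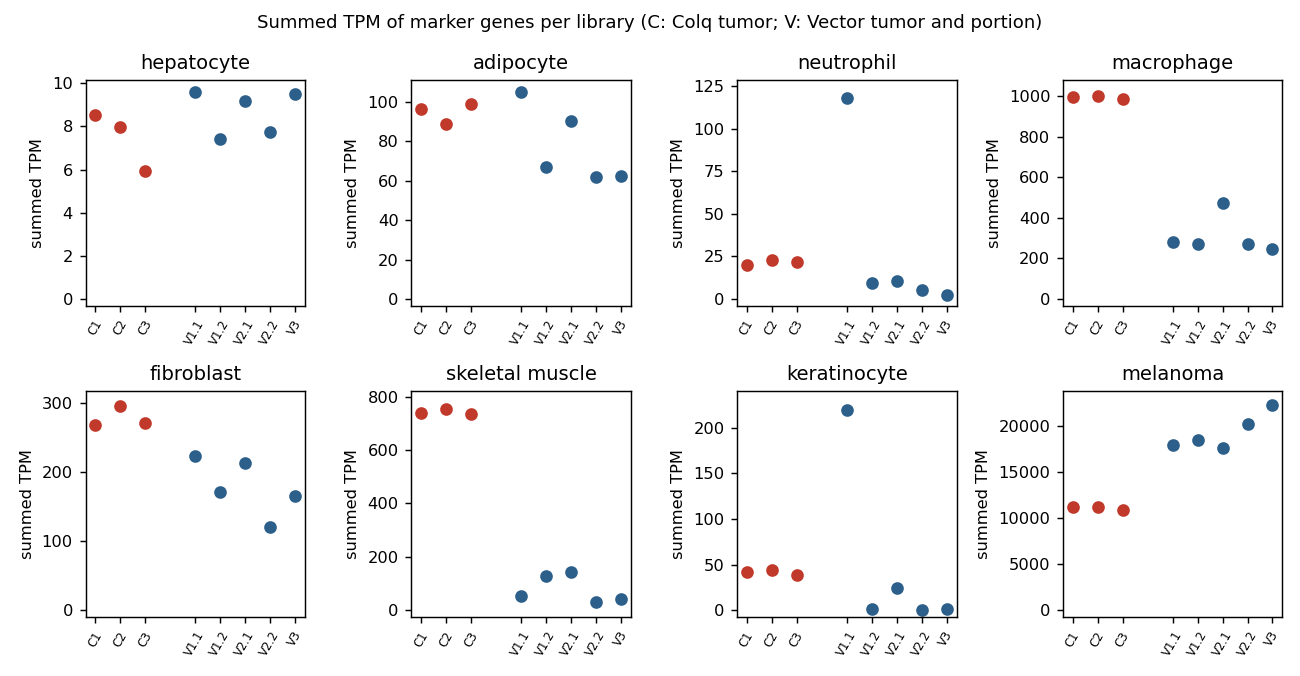
Summed TPM of marker genes of 8 cell types in each of the 3 Colq libraries (red, C1 to C3) and the 5 Vector libraries (blue, V1.1 to V3, tumor and portion). Skeletal muscle and macrophage markers lie higher in every Colq library, melanoma markers lower, hepatocyte markers stay under 10 TPM in all libraries, and the first portion of Vector tumor 1 stands apart in neutrophil and keratinocyte markers.

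The genes whose profile over the 6 tumors was most like that of Saa3 were mostly muscle genes. Likeness was the root mean square difference of log2(TPM + 1) profiles, each centred on its own mean, where the profile of Saa3 itself had a root mean square of 2.38. The 5 closest were Tnni2 (0.45), Tnnc2 (0.47), Cox8b (0.52), Tnnt3 (0.53) and Clec3b (0.56). The first 2 and Tnnt3 encode troponins of fast muscle, Cox8b a cytochrome oxidase subunit of muscle, and Clec3b a secreted lectin of fibroblasts. Their log2 fold changes were 4.04, 4.08, 3.70, 3.67 and 3.86, in the order listed, beside 4.47 for Saa3. The measure thus largely follows the group difference by which Saa3 was chosen, and nothing is read from the ranking. Tnnc2 stood at 138.2, 142.9 and 127.3 TPM in Colq tumors, against 5.15, 17.7, 22.75, 3.84 and 3.67 TPM in the Vector libraries. As with Saa3 the first portion of Vector tumor 2 was the highest Vector library. In Vector tumor 1 the order of the portions was the opposite of that of Saa3.

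The genes around the response were then counted from 8 lists, which leave the 8 members out. Of 113 genes 108 were in the table and 84 passed the filter. As deposited 17 were called higher and 32 lower in Colq tumors (limma, adjusted p under 0.05), with a median log2 fold change of -0.02, beside the 11.3% higher, 59.6% lower and -0.50 of all tested genes. After size factors 40 were higher and 15 lower, so the balance of directions rests on the scale.

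**Figure D5:**
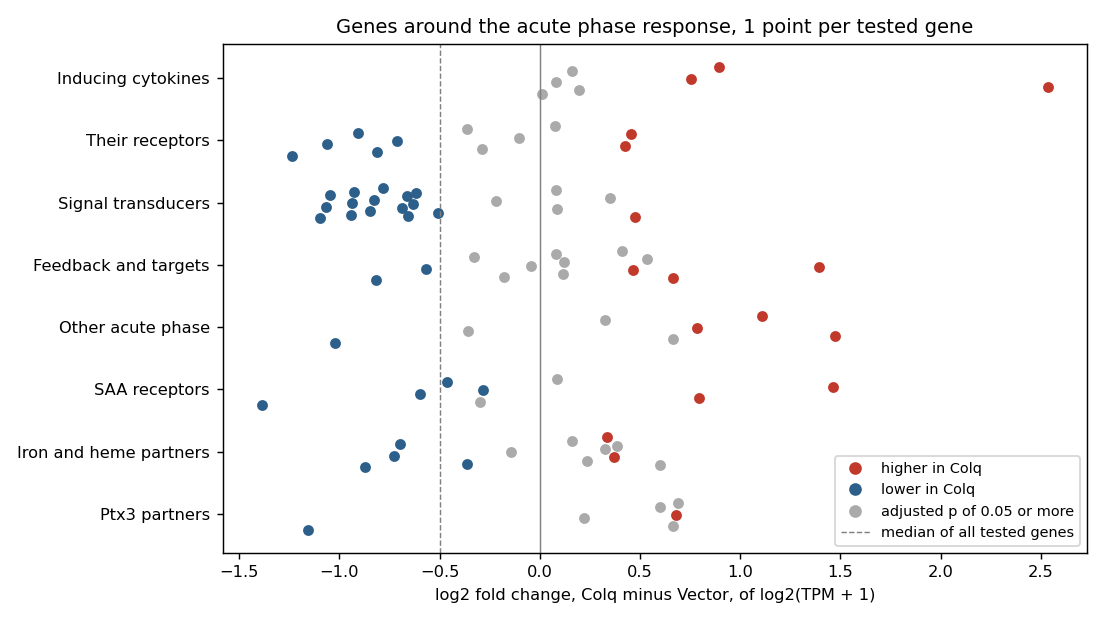
Log2 fold change, Colq minus Vector, of every tested gene in 8 lists around the acute phase response, as deposited; red points were called higher in Colq tumors, blue points lower, and grey points did not pass an adjusted p of 0.05. Inducing cytokines lie at or above 0, led by Il33 at 2.54, and most signal transducers lie below the dashed median of all tested genes.

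Among other acute phase genes 3 of 7 tested rose and 1 fell, with a median of 0.66. Lbp reached 10.0 ± 0.875 TPM in Colq tumors, against 3.28 ± 1.24 TPM in Vector tumors (log2 fold change 1.47, adjusted p = 0.00051). C3 stood at 27.5 ± 1.06 TPM with Colq, against 13.3 ± 4.61 TPM with Vector (1.11, adjusted p = 0.0029). Serpina3g, an intracellular protease inhibitor of immune cells, stood at 31.2 ± 1.11 TPM with Colq, against 18.0 ± 4.02 TPM with Vector (0.78, adjusted p = 0.00175). Lgals3bp, a secreted glycoprotein, fell to 158.1 ± 8.77 TPM in Colq tumors, against 325.4 ± 52.5 TPM in Vector tumors (-1.02, adjusted p = 0.00018). After size factors 5 were higher and 1 lower. The call of C3 is lost with first portions alone (0.87, adjusted p = 0.054).

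Of the inducing cytokines 3 of 7 tested rose and 0 fell, with a median of 0.20. Il33, an alarmin of the interleukin-1 family, stood at 24.9, 25.6 and 21.0 TPM in Colq tumors, against 6.24, 4.05, 5.72, 2.12 and 1.80 TPM in the Vector libraries. The groups did not overlap (log2 fold change 2.54, SE 0.26, adjusted p = 0.00011). Il1b, a classical inducer of serum amyloid A, stood at 7.84, 7.51 and 5.96 TPM in Colq tumors. The Vector libraries held 5.25, 1.79, 4.98, 2.55 and 3.25 TPM (0.89, SE 0.13, adjusted p = 0.00056). Its portions differed within tumor 1 by 1.16 on the log2 scale, more than its fold change between the groups. Ifng, the type II interferon, stood at 2.84 ± 0.185 TPM with Colq, against 1.28 ± 0.0839 TPM with Vector (0.75, adjusted p = 0.0016). Tnf stood at 3.32 ± 0.750 TPM with Colq, against 2.95 ± 1.49 TPM with Vector and did not pass (0.20, SE 0.30, adjusted p = 0.58). Il6, the main hepatic inducer, was under the filter. It stood at 0.95, 1.32 and 1.55 TPM in Colq tumors and at 1.38, 1.05, 0.44, 0.80 and 0.22 TPM in the Vector libraries, which overlapped, and it was named outside the rule for its role.

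Of the 11 receptors of these cytokines 5 fell and 2 rose as deposited (median -0.37). After size factors 3 were lower and 2 higher. With the exonic length trend removed 2 were lower and 3 higher, and with the transcript length trend removed 3 were lower and 4 higher. The 2 that rose as deposited, named after their values were seen, were Il11ra1 (0.42, limma adjusted p = 0.0024) and Il1r1 (0.45, limma adjusted p = 0.018). The 4 with the smallest p all fell. Il1rap, the shared subunit of the interleukin-1 and Il33 receptors, stood at 3.49 ± 0.275 TPM with Colq, against 9.61 ± 0.387 TPM with Vector (log2 fold change -1.24, adjusted p = 4.2e-05). Il6st, the signal transducing subunit of the Il6 family, stood at 7.98 ± 0.575 TPM with Colq, against 17.8 ± 0.690 TPM with Vector (-1.06). Il17ra, for interleukin-17, stood at -0.81 and Tnfrsf1a, for Tnf, at -0.71. The calls of Il17ra and Il6st are lost with a length trend removed, where Il17ra turns to 0.15, and that of Tnfrsf1a after size factors (-0.15, adjusted p = 0.32).

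Among the signal transducers 15 of 20 fell and 1 rose, with a median of -0.68, which lies near the -0.50 of all genes. After size factors 9 were lower and 4 higher, and with the transcript length trend removed 5 were lower and 4 higher. Stat3, the transcription factor of the Il6 pathway, stood at 48.3 ± 2.49 TPM with Colq, against 104.6 ± 6.71 TPM with Vector (log2 fold change -1.10). Rela, a subunit of NF-kB, stood at 21.1 ± 1.34 TPM with Colq, against 45.4 ± 1.12 TPM with Vector (-1.07). Jak1, a kinase of cytokine receptor signaling, stood at -1.05 and Nfkb2, another subunit of NF-kB, at -0.94. All 4 passed under each alternative setting tried. The 1 gene that rose, named after its value was seen, was Cebpd, a C/EBP factor of the acute phase, at 4.06 ± 0.196 TPM with Colq, against 2.70 ± 0.711 TPM with Vector (0.47, SE 0.17, adjusted p = 0.036).

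Feedback genes and other targets of these pathways included 3 that rose and 2 that fell of 13 (median 0.12), and 10 higher and 0 lower after size factors. Il1rn, the interleukin-1 receptor antagonist, stood at 15.3 ± 2.03 TPM with Colq, against 9.49 ± 0.149 TPM with Vector (log2 fold change 0.67, adjusted p = 0.0012). Il1r2, a decoy receptor, stood at 4.37 ± 0.889 TPM with Colq, against 1.17 ± 0.908 TPM with Vector (1.39, adjusted p = 0.0038). Tnip1 (-0.82) and Tnfaip3 (-0.57), which restrain NF-kB, fell as deposited. Both calls are lost after size factors, at -0.25 and -0.08, and Tnfaip3 stands at 0.15 with the transcript length trend removed. Socs3, the feedback inhibitor of Stat3 signaling, stood at 20.4 ± 1.45 TPM with Colq, against 19.4 ± 3.56 TPM with Vector (0.08, SE 0.14, adjusted p = 0.60), and passed after size factors at 0.63 (adjusted p = 0.0067). It was named outside the rule, after its value was seen.

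Receptors reported for serum amyloid A included 2 that rose and 4 that fell of 8 (median -0.29), and 3 higher and 1 lower after size factors. Fpr2, the formyl peptide receptor, stood at 7.5, 7.82 and 7.26 TPM in Colq tumors. The Vector libraries held 3.27, 1.23, 4.94, 4.17 and 0.72 TPM, below every Colq tumor (log2 fold change 1.47, SE 0.38, adjusted p = 0.0096). Scarb1, a lipoprotein receptor that melanoma cells can also express, stood at 38.2 ± 1.68 TPM with Colq, against 102.6 ± 18.9 TPM with Vector (-1.39, adjusted p = 6.2e-05). P2rx7, a channel gated by ATP, stood at -0.60 and Ager, the receptor for glycation end products, at -0.46. Both calls are lost after size factors, at -0.08 and -0.05.

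The partners of Lcn2, Hp and Cp in iron and heme handling included 2 that rose and 4 that fell of 12 (median 0.20), and 8 higher and 0 lower after size factors. Fth1, the ferritin heavy chain, stood at 3886 ± 97.5 TPM with Colq, against 3089 ± 59.5 TPM with Vector (log2 fold change 0.33, adjusted p = 0.00047). Tfrc, the transferrin receptor, stood at 59.2 ± 1.49 TPM with Colq, against 111.5 ± 23.9 TPM with Vector (-0.87), and Trf, transferrin, stood at -0.73. Both calls are lost after size factors, at -0.31 and -0.16. Slc40a1, the iron exporter whose iron Cp oxidizes, fell by 0.36 on the deposited scale; its value with size factors was 0.19 (adjusted p = 0.046), so its direction rests on the scale.

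Partners of Ptx3 included 1 that rose and 1 that fell of 6 (median 0.63), and 5 higher and 1 lower after size factors. Tnfaip6, which builds hyaluronan matrix together with Ptx3, stood at 4.07 ± 0.361 TPM with Colq, against 10.3 ± 0.955 TPM with Vector (log2 fold change -1.16, adjusted p = 8.3e-05). C1qa stood at 223.0 ± 7.02 TPM with Colq, against 150.9 ± 69.9 TPM with Vector, and C1qb at 229.0 ± 11.2 and 157.3 ± 74.0 TPM. Neither passed as deposited (adjusted p = 0.096 and 0.10), and both passed after size factors (adjusted p = 0.017 each).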

How the data were processed

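Bulk tumor RNA was extracted with TRIzol and made into poly-A libraries without strand information, per the labels' protocols. The authors deposited log2(TPM + 1) values, which return to TPM with 2 decimals for 99.9% of values. TPM came from RSEM on build mm39 and the deposited comparison from DESeq2, per the submitters' processing notes; the authors' deposited p-values were not used, and the sources used here do not say which libraries entered their log2 fold changes. The column names of the table gave each library's group, and columns were mapped by sample title.

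Portions were averaged on the log2 scale for tests and as TPM for levels. Genes whose TPM averaged 1 or more over the tumors, 13726 in all, entered a linear model in limma 3.58.1 (R 4.3.3) with a trended eBayes prior, and p-values were adjusted by Benjamini-Hochberg. Each fold change is Colq minus Vector on log2(TPM + 1), which understates changes of low genes. The fit was tested on simulated data. P-values rest on the spread between tumors as labelled, with portions averaged first, and for Colq that spread may understate the one between animals. Lengths, positions and mRNAs came from a GRCm38 annotation, and promoters from RefSeq, GRCm38.p6.

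Members, lists and motifs were chosen with earlier results of these data known. Named genes were the members, up to 4 genes per pathway list by smallest p, the 2 most abundant tested markers per cell type, and the 5 genes most like Saa3. Deviations of same-numbered tumors were nearly uncorrelated (r = 0.030, 0.0070 and 0.044), which cannot show whether the numbers pair the tumors. Other settings were pseudocounts, filters, size factors, length trends, portion choices, a replicate block and leaving out each tumor. The trend on reference transcript length (in place of exonic length), leaving out single portions and counting the Colq libraries as 1 sample were added after seeing the data. Saa4, Orm3, Apcs, Mbl2, Il17a and Ly6g were not analysed here. Values of 1 gene of the list of Ptx3 partners are not reported here.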

Additional observations from a re-analysis of the deposited data

Results flagged for a closer look

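Over the 5 Vector libraries, 26 quantities (the 8 members and 18 summed lists) were examined for a library whose distance to its nearest neighbour took most of the range. Chance gives about 1 in 20 such cases for 5 independent, normally distributed values. TPM need not be so distributed, and the 5 libraries share 2 tumors, so that rate may not hold here. Among the members Saa1 met this criterion, which any value above 0 meets when the other 4 are at 0. It stood at 1.51 TPM in portion 1 of Vector tumor 2 and at 0 in the other 4 libraries. The same library held 471.4 TPM of macrophage markers, against 247.7 to 280.6 TPM in the others. Portion 1 of Vector tumor 1 held 117.96 TPM of neutrophil markers and 219.86 TPM of keratinocyte markers, where the other Vector libraries held at most 10.4 and 24.2 TPM. S100a8 and S100a9, at 55.1 and 57.96 TPM, made up most of that neutrophil sum. Vector tumor 3, the library lowest in Saa3 and Lcn2, held 141.14 TPM of endothelial markers, against at most 91.7 TPM in the others. Vwf alone held 102.49 TPM there, against 30.04 to 42.02 TPM in the other Vector libraries, whereas Cdh5, at 9.81 TPM, Pecam1, at 13.36 TPM, and Emcn, at 8.97 TPM, were lower there than in any other Vector library. Without portion 1 of tumor 1 the log2 fold change of Saa3 was 4.54, and without portion 1 of tumor 2 it was 4.92.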

How the results depend on the processing

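Over the alternatives tried the log2 fold change ranged from 3.69 to 5.02 for Saa3, 1.55 to 4.32 for Saa1, 1.12 to 2.24 for Lcn2, 0.57 to 1.18 for Ptx3, -1.32 to -0.51 for Hp and -1.14 to -0.036 for Cp. The members were chosen on this contrast, so their counts past the threshold describe the settings and support nothing. On the higher side they numbered 2 instead of 4 under a TPM filter of 5 and with first portions, and 4 without any single tumor. On the lower side they numbered 0 instead of 2 after size factors, 1 with no filter, with either length trend removed and with second portions, and 1 to 2 without single tumors.

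Pathway genes called higher numbered 17 as deposited, 11 under a TPM filter of 5, 40 after size factors, 30 with the exonic length trend and 33 with the transcript length trend removed, 11 with first portions and 12 to 21 without single tumors. Those called lower numbered 32, then 15, 12 and 13 for size factors and both length trends, and 30 to 33 without single tumors. Over all genes the 1556 higher became 3843, 2690 and 2457 for the same scales and 1310 to 1549 without single tumors, and the 8181 lower became 3505, 3722 and 3448, and 7484 to 8216. The higher filter tests fewer genes; for the other settings the cause was not tested. Counting the mean of the 3 Colq libraries as 1 sample leaves every fold change as it was. That setting gave lower counts: 2 members higher and 0 lower, 5 pathway genes higher, and 788 of all genes higher. With 1 Colq sample no spread between Colq tumors enters the fit, so these counts cannot decide whether the calls hold. What lowered them was not tested. Directions reversed for Slc40a1 (0.19 after size factors, 0.40 and 0.23 with the exonic and transcript length trends), Col1a2 (0.0655, 0.39 and 0.32), Tnfaip3 (0.12 and 0.15 with the length trends), Il17ra (0.15, transcript length) and P2rx7 (0.0154, exonic length). Of the 32 named pathway genes 14 kept direction and call throughout. The calls of Fpr2, Il1r2, Serpina3g and Fth1 were among those that changed in at least 1 setting, the fit with 1 Colq sample included. The replicate block left the members' counts at 4 and 2 and gave 17 higher and 31 lower pathway genes and 1526 and 7928 over all genes. Whether the shared numbers pair the tumors is not known. TPM holds no depth, so the limit of detection for Saa1, Saa2 and Orm1 is unknown.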

Other observations

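Several genes around the response lay under the filter, and their levels are given with no test. Il11, an Il6 family cytokine, stood at 0.807 ± 0.341 TPM with Colq, against 0.163 ± 0.0539 TPM with Vector (SD, n = 3 each). Osm, oncostatin M, stood at 1.03 ± 0.0702 TPM with Colq, against 0.67 ± 0.390 TPM with Vector. Lrp2, the megalin receptor that takes up Lcn2, stood at 0.0867 ± 0.0208 TPM with Colq, against 0.27, 0.31 and 2.19 TPM in Vector tumors 1, 2 and 3, so that the Vector level rests on tumor 3. Ltf, lactoferrin of neutrophil granules, which also binds iron, stood at 0.83 ± 0.298 TPM with Colq, against 0.0233 ± 0.0252 TPM with Vector. These 4 genes were named after their values were seen.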
